A study of Mus musculus with 12 samples.

Results

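The genes described here are 10 regulators of pluripotency, the state of embryonic stem cells (ESCs) and of the early epiblast, measured by RNA-seq in mouse eye organoids. They were chosen by name, with earlier results of these data known. The 4 core genes, used in every pluripotent state, are Pou5f1, Sox2, Sall4 and Lin28a. The 6 genes of the formative or primed state, which follows the naive one, are Fgf5, Pou3f1, Dnmt3b, Dnmt3l, Lin28b and Utf1. Together they are 10 of the 54232 gene IDs in the count tables, and all 10 were among the 17721 genes with enough counts to be tested. The question for them was whether a difference between treatments was shared by both states or kept to one.

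The organoids were grown from 1 mouse ESC line (Rx-GFP K/I EB5) that carries GFP at 1 allele of Rax, a gene of the eye field, and all 12 libraries were labelled day 7 of culture. Control organoids (n = 4) were compared with LDHi organoids (n = 4), which received 20 µM GNE-140 over 3 days to block lactate dehydrogenase, and with LDHi+lactate organoids (n = 4), which received sodium L-lactate at 25 mM besides GNE-140. The labels state that lactate preceded GNE-140 by 12 h, while the methods of the study place lactate in the presence of GNE-140. The libraries of each group are numbered 1 to 4, and numbers 1 and 2 carry the cell type label eye organoid and numbers 3 and 4 the label retina progenitors. The parental EB5 line is known to carry a blasticidin resistance gene at an allele of Pou5f1, and the ESCs were kept with leukemia inhibitory factor and blasticidin before differentiation. Pou5f1 reads here cannot be assigned to an allele.

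As background, Pou5f1 (OCT4) and Sox2 bind many of the same enhancers and hold the pluripotency network in place. When naive ESCs leave the ground state, factors such as Nanog, Klf4 and Tfcp2l1 are shut down while Pou5f1 and Sox2 stay on, and genes such as Fgf5, Pou3f1, Utf1 and the de novo methyltransferase Dnmt3b come on. Neural differentiation then silences Pou5f1, while Sox2, Lin28a, Lin28b and Sall4 persist for a time in neural progenitors, so that Sox2 in an eye organoid at this stage is also a gene of the normal neuroepithelium and of the optic vesicle (OV). In bulk RNA fewer cells that express a gene and less RNA per cell cannot be told apart.

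The stretches before the annotated starts of Pou5f1, Sox2 and Utf1 are shown because these 3 members had the largest or the steadiest differences between the groups. They were read from RefSeq promoters (build GRCm38.p6), run 5′ to 3′ on the plus strand, and stop at the earlier of the RefSeq and GENCODE starts. Capitals mark the GC box GGGCGG and the 7 letters ATGCAAA, a part of the octamer motif bound by POU factors, on either strand. A match to these 7 letters need not be a whole octamer.
Pou5f1, chr17:35505782-35506017: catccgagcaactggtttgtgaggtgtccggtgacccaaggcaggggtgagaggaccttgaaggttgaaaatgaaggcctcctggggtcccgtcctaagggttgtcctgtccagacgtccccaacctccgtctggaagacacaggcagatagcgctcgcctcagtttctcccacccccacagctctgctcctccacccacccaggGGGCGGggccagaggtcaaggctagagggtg
Sox2, chr3:34649745-34649994: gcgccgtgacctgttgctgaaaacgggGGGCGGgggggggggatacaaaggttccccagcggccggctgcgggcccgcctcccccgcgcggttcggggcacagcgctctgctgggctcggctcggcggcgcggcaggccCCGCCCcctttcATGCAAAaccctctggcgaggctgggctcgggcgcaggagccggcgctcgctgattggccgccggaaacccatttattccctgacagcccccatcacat
Utf1, chr7:139943606-139943788: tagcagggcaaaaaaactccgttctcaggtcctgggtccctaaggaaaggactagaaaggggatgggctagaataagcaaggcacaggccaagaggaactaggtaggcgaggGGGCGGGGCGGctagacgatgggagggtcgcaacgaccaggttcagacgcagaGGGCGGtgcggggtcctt
In the whole 250 bases before the RefSeq start, a window in which overlapping matches were counted, Pou5f1 held 1 GC box, Sox2 held 2 and Utf1 held 4. The GC box occurred in 32.7% and ATGCAAA in 4.12% of the 32851 promoters of that length. Among the 11 promoters found for 8 of the members 6 held a GC box and 1, that of Sox2, held ATGCAAA. Sall4 and Pou3f1 had no entry. These matches describe letters and not binding. The window of Sox2 was also the richest in CpG of the 3, with 27 in 250 bases against 14 for Utf1 and 8 for Pou5f1 (median of all promoters 6).

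Levels are given as CPM, read counts divided by the library total, itself scaled with TMM, and set to a common total, and means as mean ± SD over the 4 libraries of a group. Totals ranged from 22174002 to 48271386 counts per library, and numbers 1 and 2 were deeper (37284585 to 48271386) than numbers 3 and 4 (22174002 to 29919036). Differences were tested over all genes with edgeR's quasi-likelihood test without a block, and again with the replicate number as a block (called below the replicate block), since libraries of the same number deviated together. A gene was called at a Benjamini-Hochberg adjusted p under 0.05 over the 17721 genes. Without the block edgeR called 0.909% of all genes higher and 2.18% lower in LDHi than in control, and with the replicate block it called 9.85% higher and 10.1% lower.

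In LDHi organoids 1 of the 10 members rose in the fit without a block, Sox2, and with the replicate block 5 rose, which were the core genes Pou5f1, Sox2 and Sall4 and the formative or primed genes Dnmt3l and Utf1. No member was called lower in either fit. With the block the rise thus covered 3 of 4 core genes and 2 of 6 formative or primed genes. Without it the counts were 1 of 4 and 0 of 6, so in these fits both classes had called members only with the block. Core genes are used in every pluripotent state, so their calls do not point to 1 state. Fgf5 and Pou3f1, the genes most often used to mark exit from the naive state, were called in neither fit. The median log2 fold change over the 10 members was 0.44 without the block and 0.47 with it, beside 0.01 over all genes in both fits. Since the members were chosen with earlier results of these data known, the calls and this gap only describe them. Within numbers 1 and 2 the mean log2 differences were 1.37 for Pou5f1, 0.68 for Sox2, 0.41 for Sall4, 0.23 for Dnmt3l and 0.79 for Utf1, and within numbers 3 and 4 they were 1.82, 0.56, 0.81, 1.39 and 1.74. All 5 were called on these same libraries and were higher in LDHi in 4 of 4 pairs. Positive means in both sets follow from that and are no separate evidence. At 4 against 6 genes, the share called in 1 class was not tested against that in the other.

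Pou5f1, the POU factor on which pluripotency depends (chromosome 17, 35506018 to 35510772 on the plus strand, mm10), had the largest difference of the 10. Its level was 29.2, 81.9, 32.0 and 36.7 CPM in control libraries 1 to 4 and 90.3, 176, 151 and 96.4 CPM in LDHi libraries 1 to 4. Every LDHi library was above every control library, a pattern that 4.26% of all genes showed. The means were 44.9 ± 24.9 CPM in control and 128 ± 41.9 CPM in LDHi, and the lowest LDHi library was near the control library 2, which stood far above the other control libraries. The fitted log2 fold change was 1.51 ± 0.44 (SE), a 2.85-fold difference, with an edgeR adjusted p of 0.0885, and with the replicate block it was 1.61 ± 0.20 with an edgeR adjusted p of 0.000595. Without control library 2 the unblocked fit gave 1.97 and an adjusted p of 0.0257. DESeq2 without the block gave 1.51 and an adjusted p of 0.00863. The exact permutation test of log2 CPM gave p = 0.0286, the smallest value that 4 against 4 libraries allow. In LDHi+lactate organoids Pou5f1 was at 75.6, 200, 63.3 and 58.6 CPM, above the control library of the same number in 4 of 4 pairs and below the LDHi library in 3 of 4. Against control it was 1.14 ± 0.44 higher on the log2 scale (adjusted p = 0.445 in edgeR, and 0.0139 with the replicate block at 1.10), and against LDHi it was called in neither fit.

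Sox2, the SOX factor that pairs with Pou5f1 and also marks neural progenitors (chromosome 3, 34650405 to 34652461 on the plus strand), was the most abundant member and the most even within groups. Control libraries 1 to 4 held 373, 350, 378 and 502 CPM and LDHi libraries 568, 588, 602 and 682 CPM. The 4 LDHi libraries lay above all 4 control libraries (610 ± 49.9 against 401 ± 68.6 CPM), and number 4 was the highest in each group. The difference of 0.61 ± 0.12 on the log2 scale (1.53-fold) passed in edgeR without the block (adjusted p = 0.0227) and with it (0.62, adjusted p = 0.000112). The unblocked call was lost at an adjusted p of 0.0570 to 0.0800 when control library 1 or 3 or LDHi library 2, 3 or 4 was left out, singly. In LDHi+lactate organoids Sox2 was at 451, 463, 467 and 574 CPM, below the LDHi library of the same number in 4 of 4 pairs and above the control library in 4 of 4. In the 2 edgeR fits it was the only member called between LDHi+lactate and LDHi, at -0.32 ± 0.05 with the replicate block (adjusted p = 0.0248). Without any one of replicates 1, 2 and 3 this call was lost (adjusted p = 0.101 to 0.191). With no filter on counts the blocked fit also called Pou5f1 lower and Lin28a higher in this comparison. The Sox2 gene lies within the long transcript Sox2ot on the same strand, with 5142 counts in all libraries together beside 205998 for Sox2.

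Sall4, a zinc finger factor of ESCs and early embryos (chromosome 2, 168748332 to 168767943 on the minus strand), was higher in LDHi in all 4 pairs although the groups overlapped. Control libraries held 69.7, 110, 127 and 82.7 CPM and LDHi libraries 100, 135, 207 and 157 CPM. Number 1 was the lowest and number 3 the highest in each group, so that libraries of one group differed by more (1.82-fold in control) than the groups did (1.54-fold). The log2 fold change of 0.62 ± 0.25 was not called without the block (edgeR adjusted p = 0.222) and was called with the replicate block (0.61 ± 0.09, adjusted p = 0.00126). LDHi+lactate libraries, at 94.5, 152, 179 and 148 CPM, were close to those of LDHi, with a difference of -0.05 ± 0.09 in the blocked fit. Against control they were higher by 0.56 ± 0.09 with the replicate block (edgeR adjusted p = 0.00958).

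Lin28a, an RNA-binding protein that blocks maturation of the let-7 microRNAs (chromosome 4, 134003330 to 134018841 on the minus strand), was the core gene that did not move with the other 3. It held 235, 471, 450 and 132 CPM in control libraries 1 to 4 and 154, 252, 369 and 175 CPM in LDHi libraries, lower in 3 of 4 pairs. Its fitted log2 difference was -0.44 ± 0.41 without the block (edgeR adjusted p = 0.700) and -0.37 ± 0.16 with it (adjusted p = 0.142), and without replicate 4 the blocked fit called it lower at -0.62 (adjusted p = 0.00593). LDHi+lactate libraries held 207, 389, 469 and 208 CPM, above LDHi in 4 of 4 pairs and called in neither fit (edgeR adjusted p = 0.367 with the replicate block). The 4 core genes therefore gave 2 patterns with LDHi, higher in every pair for Pou5f1, Sox2 and Sall4 and mostly lower for Lin28a.

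**Figure D1:**
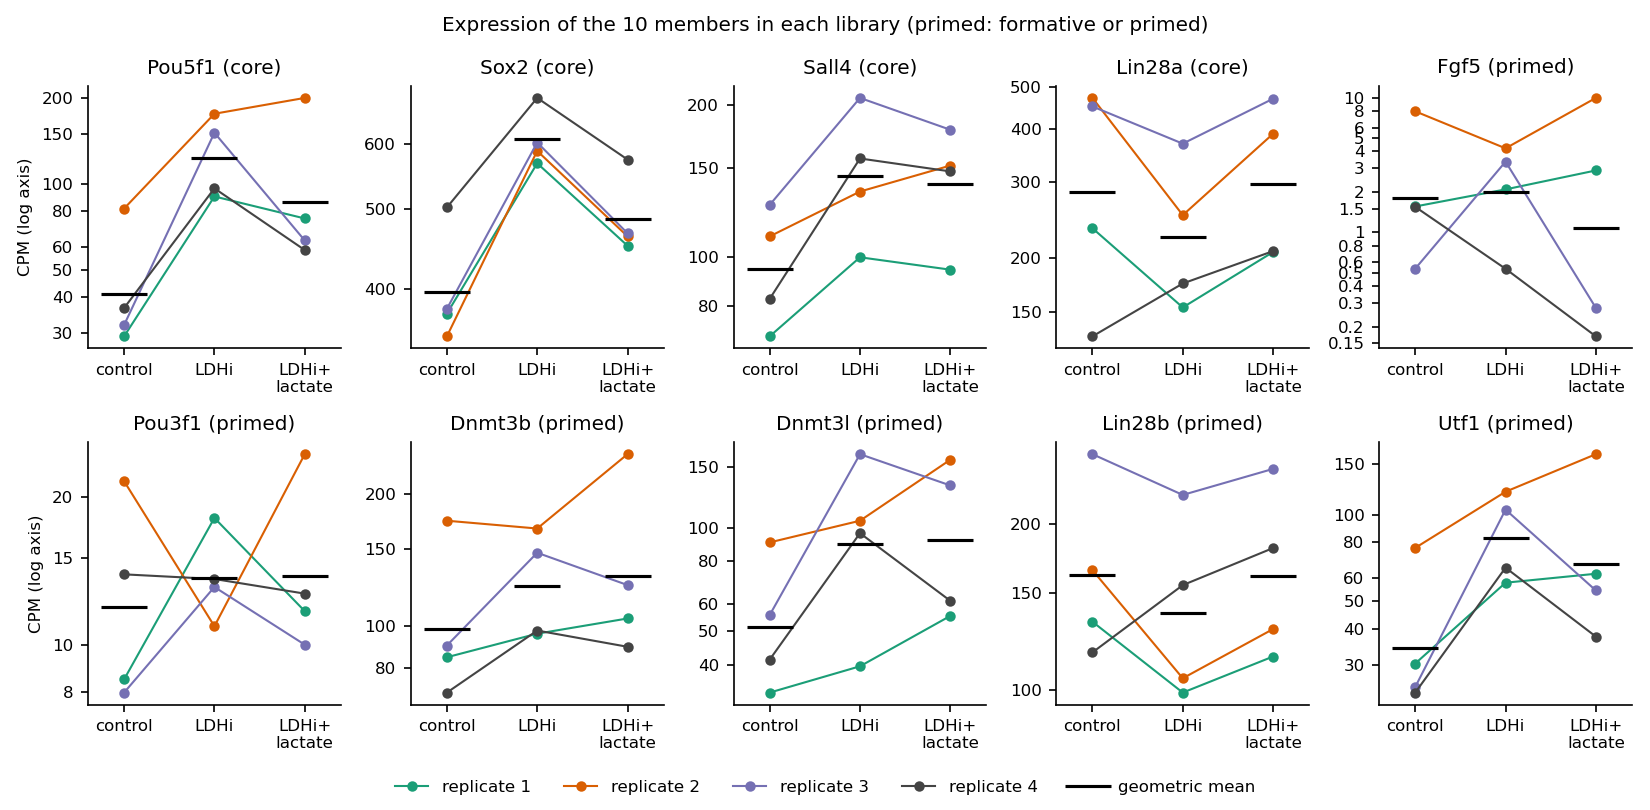
CPM on a log axis for the 10 members in control, LDHi and LDHi+lactate organoids, 1 panel per gene. Points are libraries, lines join libraries of the same replicate number and black dashes are geometric means of 4 libraries. Pou5f1 and Sox2 are higher in every LDHi library than in every control library, and Fgf5 spans 0.169 to 10 CPM with no common direction.

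Among the formative or primed genes, Utf1, a chromatin-associated factor of ESCs and epiblast (chromosome 7, 139943789 to 139945112 on the plus strand), differed most. It was at 30.4, 76.6, 25.2 and 24.1 CPM in control libraries and at 58.0, 120, 104 and 65.4 CPM in LDHi libraries. All 4 pairs were higher in LDHi, while control library 2 was above 2 of the LDHi libraries. The log2 fold change was 1.15 ± 0.48 without the block (edgeR adjusted p = 0.245) and 1.29 ± 0.21 with the replicate block (adjusted p = 0.00266). In LDHi+lactate organoids Utf1 was at 62.3, 162, 54.5 and 37.7 CPM, higher than control in 4 of 4 pairs (0.97 ± 0.21 with the replicate block, edgeR adjusted p = 0.0261).

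Dnmt3l, a catalytically inactive partner of the de novo DNA methyltransferases (chromosome 10, 78041947 to 78063622 on the plus strand), rose only in the blocked fit. Control libraries held 33.2, 90.8, 55.8 and 41.4 CPM, LDHi libraries 39.6, 105, 164 and 96.6 CPM and LDHi+lactate libraries 55.5, 158, 133 and 61.4 CPM. In LDHi the gain over control was small in numbers 1 and 2 (mean log2 difference 0.23) and larger in numbers 3 and 4 (1.39). An edgeR term for a different effect of LDHi in the 2 sets was 1.20 ± 0.95 (adjusted p = 0.890). In LDHi+lactate the gains were 0.77 and 0.91. Both treated groups were higher than control by 0.83 on the log2 scale with the replicate block (SE 0.22 and 0.21, edgeR adjusted p = 0.0225 and 0.0429), and the LDHi call was lost without replicate 3 (adjusted p = 0.140) or replicate 4 (0.0967). Dnmt3l shares its locus with Aire on the other strand (2801 counts against 34799), and whether reads were assigned by strand was not stated in the sources used here. Dnmt3b, the enzyme that Dnmt3l stimulates (chromosome 2, 153649450 to 153687730 on the plus strand), was at 84.8, 174, 90.2 and 70.4 CPM in control and at 96.0, 167, 147 and 97.6 CPM in LDHi libraries. Its difference of 0.33 ± 0.12 with the replicate block was not called (edgeR adjusted p = 0.0691), and DESeq2 with the replicate block gave an adjusted p of 0.0291 at 0.33.

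Fgf5, the secreted growth factor whose transcript marks the epiblast after implantation (chromosome 5, 98254184 to 98277030 on the plus strand), was the least abundant member and the most variable. Control libraries held 1.56, 7.95, 0.538 and 1.55 CPM, LDHi libraries 2.09, 4.22, 3.36 and 0.537 CPM and LDHi+lactate libraries 2.89, 10, 0.275 and 0.169 CPM. Number 2 was the highest in each group, and counts per library ran from 5 to 371. The log2 difference between LDHi and control was -0.19 ± 1.08 without the block and 0.21 ± 0.75 with it, an SE larger than the estimate in both fits. No difference was detectable for Fgf5 at this spread (edgeR adjusted p = 0.966 and 0.884).

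Pou3f1 (OCT6), a POU factor of the epiblast and of neural progenitors (chromosome 4, 124656807 to 124660655 on the plus strand), was at 8.50, 21.5, 7.99 and 13.9 CPM in control and at 18.1, 10.9, 13.1 and 13.6 CPM in LDHi libraries. It was higher in LDHi in 2 of 4 pairs and lower in 2, and LDHi+lactate libraries, at 11.7, 24.4, 10 and 12.7 CPM, covered the same range. Lin28b, the paralog of Lin28a (chromosome 10, 45376620 to 45486395 on the minus strand), was at 133, 165, 268 and 117 CPM in control, 98.9, 105, 226 and 155 CPM in LDHi and 115, 129, 252 and 181 CPM in LDHi+lactate libraries. As for Lin28a, LDHi was below control in 3 of 4 pairs and below LDHi+lactate in 4 of 4, and neither comparison was called (edgeR adjusted p = 0.259 and 0.623 with the replicate block). Without replicate 4 the blocked fit called Lin28b lower in LDHi at -0.46 (edgeR adjusted p = 0.00677), as it did Lin28a.

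Set per length of exon, the order of the members was led by Sox2 in every group. In control libraries Sox2 was at 195 ± 33.3 CPM per kb, Lin28a at 80.5 ± 41.4 and Utf1 at 31.8 ± 20.5, while Dnmt3b, Pou5f1, Lin28b, Dnmt3l and Sall4 lay between 17.6 and 20.5 CPM per kb and did not differ beyond their SD. Pou3f1 at 3.37 ± 1.64 and Fgf5 at 1.16 ± 1.36 CPM per kb were the lowest. In LDHi libraries the order began with Sox2 at 296 ± 24.2, followed by Utf1 at 70.8 ± 24.4, Lin28a at 59.4 ± 24.4 and Pou5f1 at 57.2 ± 18.6 CPM per kb, of which the last 3 overlapped. Fgf5 and Pou3f1 were last in all 3 groups.

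Between LDHi+lactate and LDHi edgeR called 0.0% of all genes higher and 0.0% lower without the block. An unadjusted p under 0.05 was found for 603 of 17721 genes, fewer than that threshold gives without any difference. By DESeq2, 54 genes were higher and 2 lower. With the replicate block edgeR called 0.57% higher and 0.0677% lower. Of the members 0 were called without the block and 1, Sox2, was lower with it. The core genes other than Lin28a had negative differences with the replicate block, at -0.51 for Pou5f1, -0.32 for Sox2 and -0.05 for Sall4, and Lin28a and Lin28b had positive ones, at 0.40 and 0.22. The mean log2 differences of Pou5f1 and Utf1 were -0.04 and 0.27 in numbers 1 and 2, and -0.99 and -0.86 in numbers 3 and 4. A term for a different effect in the 2 sets was called for 0 genes by edgeR. Its unadjusted p was under 0.05 for 239 of 17721 genes, again fewer than the threshold gives without any difference. For Pou5f1 the term was -1.07 ± 0.77 and for Utf1 -1.21 ± 0.77 (edgeR adjusted p = 0.9999 for both).

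Between LDHi+lactate and control edgeR called 0.0% of genes higher and 0.0% lower without the block, with 1653 genes at an unadjusted p under 0.05 and 114 higher and 120 lower by DESeq2. With the replicate block it called 4.18% higher and 3.87% lower, and the 5 members called were those called in LDHi, namely Pou5f1, Sox2, Sall4, Dnmt3l and Utf1. In 6 of the 10 members, these 5 and Dnmt3b, LDHi+lactate was above control in 4 of 4 pairs. The share of all genes above control in 4 of 4 pairs was not counted, so this count only describes the members. For 0 members every LDHi+lactate library was above every control library, a pattern of 2.12% of all genes. Without replicate 1 the blocked fit called 0 members (38 genes higher in all, against 740), and without each of the other numbers it called 2 to 4. The comparisons share libraries, so the same control libraries stand behind both lists of 5.

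**Figure D2:**
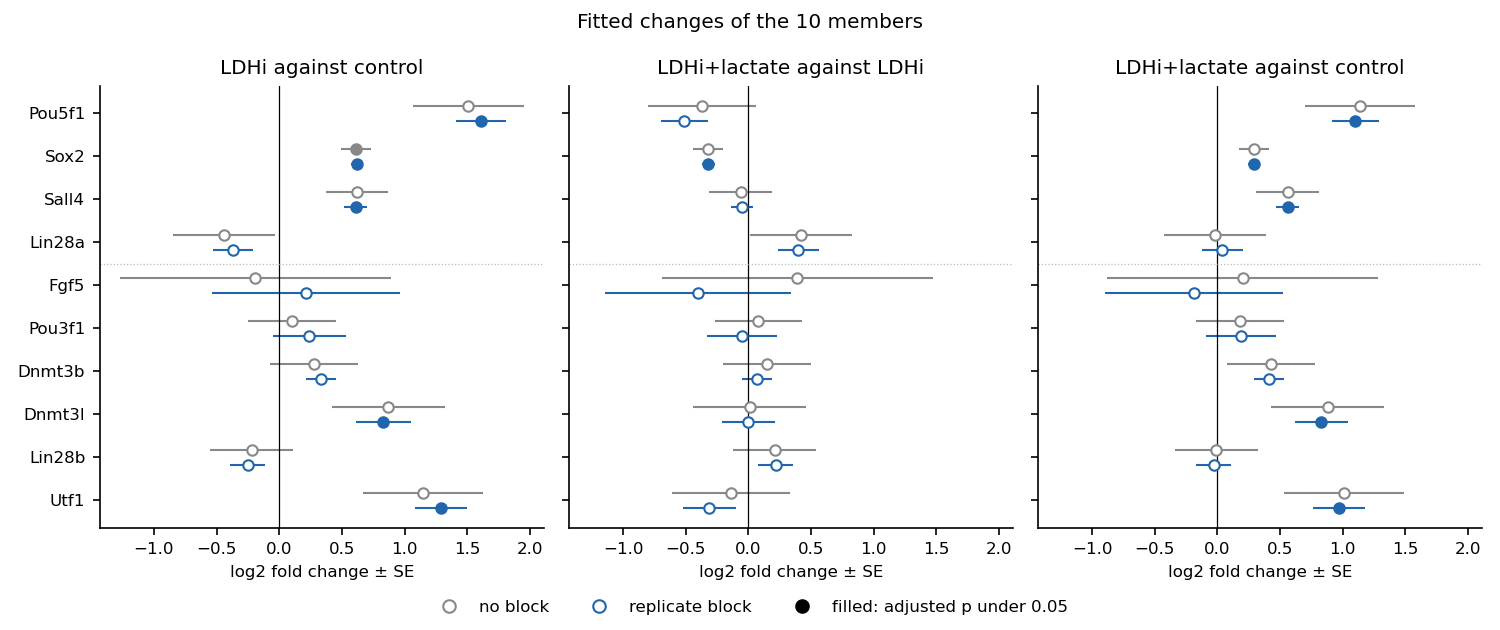
Fitted log2 fold changes ± SE of the 10 members in the 3 comparisons, from edgeR without a block (grey) and with the replicate block (blue). Filled points have an adjusted p under 0.05, and the dotted line parts the 4 core genes from the 6 formative or primed genes. Apart from Fgf5, the estimates move little between the fits while the SE shrinks with the block, as for Pou5f1 in LDHi against control from 0.44 to 0.20.

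The replicate number accounted for more of the variation of most members than treatment did, as it did at the median of the genes tested (54.6% against 16%). These are raw shares, and 4 numbers can take more by noise alone than 3 groups can. Of the sum of squares of log2 CPM over 12 libraries, treatment took 73.3% for Sox2, 56.4% for Pou5f1, 41.2% for Utf1 and 38.2% for Sall4. For Lin28a, Lin28b and Dnmt3b the replicate number took 79.7% to 80.8% and treatment 5.09% to 11.9%. Sox2 and Pou5f1 were thus the members in which treatment had the larger share, and in the other 8 the share of the replicate number was larger. Number 2 was the highest on average for Pou5f1 (142 CPM as a geometric mean of 3 libraries, against 58.5 to 67.4 for the other numbers), Utf1 (114 against 39.1 to 52.3), Dnmt3b (193 against 85.1 to 118) and Fgf5 (7.01 against 0.6 to 2.17). Number 3 was the highest for Sall4, Lin28a and Lin28b. Apart from the cell type wording for numbers 1 and 2 and for numbers 3 and 4, the labels used here give no difference between the numbers.

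**Figure D3:**
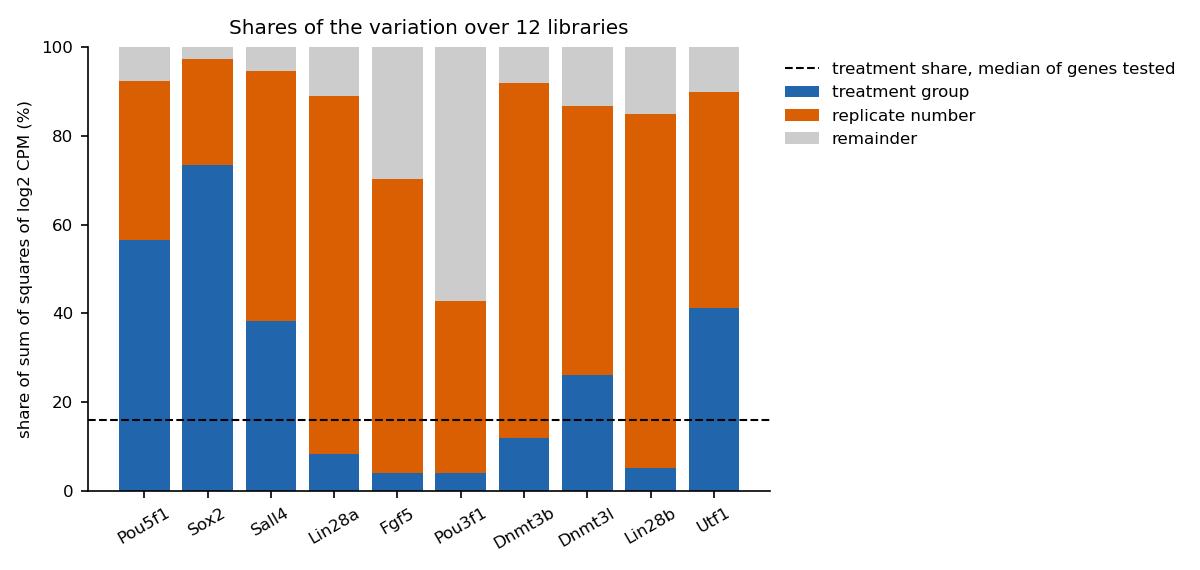
Shares of the sum of squares of log2 CPM over the 12 libraries for each member, split between treatment group, replicate number and the remainder, in percent. The dashed line is the median treatment share of the genes tested (16%), and Sox2, Pou5f1, Utf1, Sall4 and Dnmt3l lie above it.

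Ratios of members within a library remove differences of scale. Those of Fgf5 and Utf1 to Pou5f1, Pou3f1 to Sox2 and Lin28b to Lin28a set a formative or primed gene against a core gene, while Sox2 to Pou5f1 and Dnmt3l to Dnmt3b stay within a class. For 6 ratios of log2 CPM (prior count 2) in 3 comparisons, two-sided exact permutation tests of 4 against 4 libraries can give p = 0.0286 at the least, which a single ratio could not bring past Benjamini-Hochberg adjustment over 18 tests. The exact sign test over the 4 pairs cannot go below p = 0.125. These tests therefore say nothing of whether the ratios stayed the same, and the values are a description (smallest adjusted p 0.513 in the permutation tests). The log2 ratio of Fgf5 to Pou5f1 was -4.45 ± 0.994 in control and -5.89 ± 0.967 in LDHi libraries (SD, n = 4), a mean difference of -1.44 and lower in 3 of 4 pairs (exact p = 0.114, adjusted 0.513). In LDHi+lactate libraries it was -6.15 ± 1.92, a mean difference of -1.70 from control and lower in 4 of 4 pairs, with differences of -3.50 to -0.50 (exact p = 0.200, adjusted 0.514). The ratio of Sox2 to Pou5f1 was 3.28 ± 0.792 in control and 2.30 ± 0.518 in LDHi libraries, lower in 4 of 4 pairs with differences of -1.57 to -0.36 (exact p = 0.0857, adjusted 0.513).

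The ratio of Utf1 to Pou5f1 set a state gene against a core gene and was the narrowest of the 6. It was -0.57 ± 0.0454 in the 4 LDHi libraries, -0.25 ± 0.290 in control and -0.36 ± 0.189 in LDHi+lactate libraries. Although both genes varied 1.95-fold and 2.07-fold among LDHi libraries, their ratio there hardly varied. Across the 12 libraries Pearson's r of log2 CPM was 0.968 for Pou5f1 and Utf1, a description over libraries that share treatment and replicate number. The log2 ratio of Dnmt3l to Dnmt3b was above control in 4 of 4 pairs in each treated group, by 0.48 on average in LDHi (0.08 to 0.84) and 0.43 in LDHi+lactate (0.22 to 0.78). The exact permutation test, which ignores the pairs, gave p = 0.200 and 0.143. The ratio of Lin28b to Lin28a moved by 0.12 in LDHi, with pair differences of 0.00 to 0.25.

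The genes whose log2 CPM followed a member most closely over the 12 libraries were taken from 14234 genes whose mean log2 CPM was 0 or more. For Pou5f1 they were Zfp951 (r = 0.988), Fbxo22, Slc28a1, Zfp981 and Gdf3 (0.980), of which Gdf3, a TGF-beta family ligand of ESCs, is in the lists below. For Utf1 they were Rps4l (0.984), Epcam, Phb, Gpa33 and Fnta (0.976), and for Sox2 Kdm3a (0.940), Ctcf, Kat6b, Rbbp5 and BC005537 (0.925). Those of Sall4 were Hspa4 (0.979), Gm34653, Hsp90aa1, Kif20a and Iqgap1, and those of Lin28a Hmga1 (0.977), Tdp1, Lpcat1, Rpl7 and Pawr. Dnmt3l was followed by Impa2 (0.972), its neighbour Aire (0.966), Tsen54, Ube2z and Utp14a, and Dnmt3b by Agpat2 (0.966), Kdf1, Thap4, Gm5165 and Amn. Lin28b had Ptpn14 (0.952), Prtg, Knop1, Ski and Ttll12, Fgf5 had Cenpn (0.930), Lefty1, Bckdha, Ss18 and Psmb10, and Pou3f1, with the weakest likeness, had Tbp (0.847), Brat1, 0610009B22Rik, Krtcap3 and Pim2. The r values carry no p, since libraries of one number and one treatment are not independent.

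Other genes of the network were read from the same fits. In LDHi these called 0.909% of all genes higher without the block and 9.85% with it. Of 14 naive pluripotency factors 10 rose in LDHi without the block and 14 with it, with a median log2 fold change of 1.30 and 1.32, among them Klf4 (0.84 ± 0.12, edgeR adjusted p = 0.00907), Nr5a2 (1.65 ± 0.24, 0.00949), Prdm14 (1.47 ± 0.23, 0.0110) and Tfcp2l1 (1.30 ± 0.21, 0.0122). Tbx3 (0.95, adjusted p = 0.0556) and Tcl1 (1.38, 0.0597) were called only with the replicate block. The median of the 4 core members was 0.61 and 0.61 in the 2 fits and that of the 6 formative or primed members 0.19 and 0.28. Of 14 other core network genes 2 rose without the block, Nanog (1.24 ± 0.26, adjusted p = 0.0275), which is also in the naive list, and L1td1 (1.5 ± 0.37, 0.0466), an RNA-binding protein of ESCs. With the replicate block 10 of the 14 rose, including Gdf3 (1.63 ± 0.19) and Dppa2 (1.43 ± 0.25), with a median of 0.87.

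Of 14 other formative or primed genes 2 rose without the block, the ETS factors Etv5 (1.29 ± 0.25, edgeR adjusted p = 0.0214) and Etv4 (1.30 ± 0.29, 0.0315), which are known as transcriptional targets of FGF signaling. With the replicate block 4 rose and 1 fell, with a median of 0.32, while 9.85% of all genes rose and 10.1% fell. Nodal, a TGF-beta family ligand of the epiblast, was among those that rose with the block (1.39 ± 0.22, adjusted p = 0.00185). The 1 that fell was Otx2, a homeobox factor of the primed epiblast and also of the forebrain and the OV (-0.75 ± 0.12, adjusted p = 0.00257). Most of the 14 were called in neither fit.

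**Figure D4:**
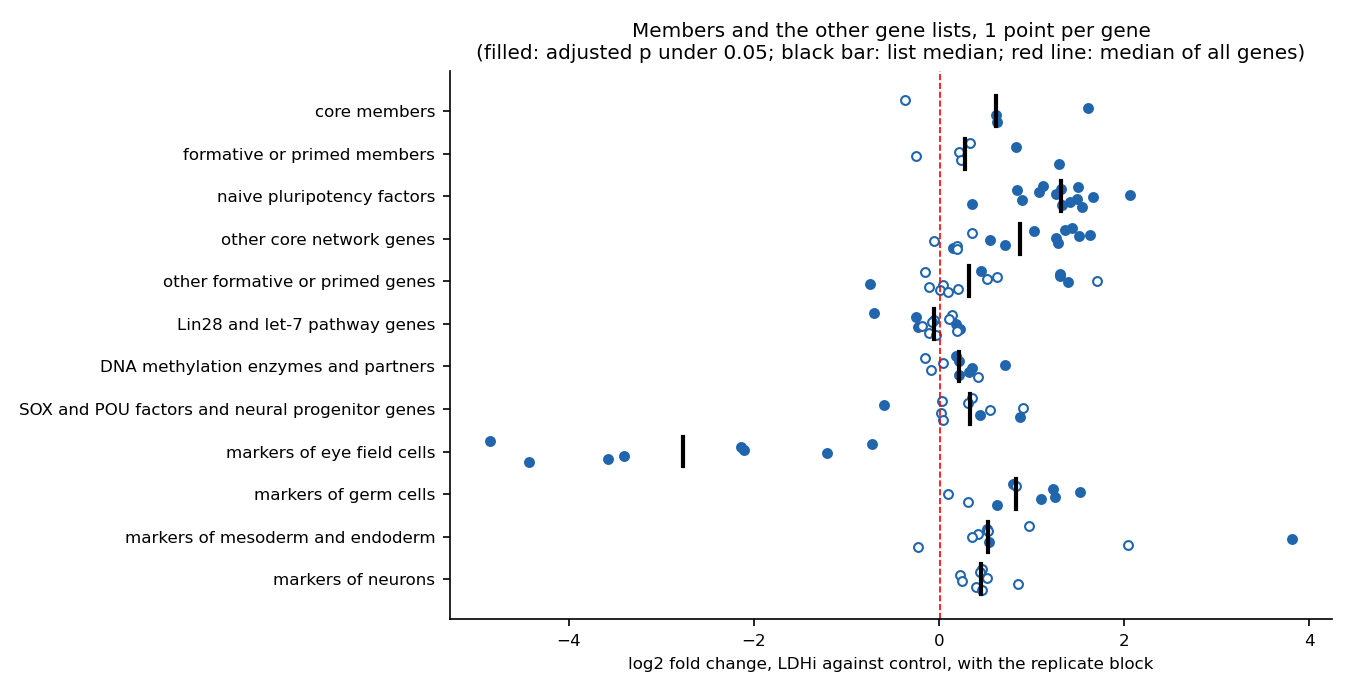
Log2 fold changes of LDHi against control from edgeR with the replicate block, 1 point per tested gene in each list. Filled points have an adjusted p under 0.05, black bars are list medians and the red line is the median of all genes. The naive factors are all above 0 with a median of 1.32, and the formative or primed members spread around 0.28.

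In the other comparisons, with the replicate block, 0 of the 14 naive factors were called between LDHi+lactate and LDHi (10 at an unadjusted p under 0.05 in edgeR, median -0.38), and 12 were higher in LDHi+lactate than in control (median 0.90). Of the other core network genes 0 and 7 of 14 were called in these comparisons (7 at an unadjusted p under 0.05 in the first), and of the other formative or primed genes 0 and 2 of 14 (5 at an unadjusted p under 0.05 in the first). Of the 8 eye field markers 6 were higher in LDHi+lactate than in LDHi (median 2.53), and 1 was lower in LDHi+lactate than in control. Between LDHi+lactate and LDHi 2021 of 17721 genes were at an unadjusted edgeR p under 0.05 with the block. Of all genes 0.57% were higher in LDHi+lactate than in LDHi with the block. Against control 4.18% were higher and 3.87% lower.

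Genes tied to single members by pathway came next. Of 13 genes of the Lin28 and let-7 pathway 0 were called without the block (2 at an unadjusted edgeR p under 0.05). Without the block edgeR called 0.909% of all genes higher and 2.18% lower, and 2916 of 17721 were at an unadjusted p under 0.05. With the block 2 of the 13 rose and 3 fell, with a median of -0.06. Of all genes edgeR then called 9.85% higher and 10.1% lower. Arid3a, reported as a let-7 target, was lower at -0.70 ± 0.06 with the replicate block (edgeR adjusted p = 0.000137) and higher in LDHi+lactate than in LDHi by 0.60 ± 0.06 (0.00449). The mRNA-binding protein Igf2bp3 was lower in LDHi at -0.23 ± 0.07 with the block (0.0331). Of 10 DNA methylation enzymes and partners 0 were called without the block (2 at an unadjusted p under 0.05) and 6 rose with it, by small amounts, with a median of 0.22. They included Tet1, which oxidizes methylated cytosine (0.71 ± 0.11, adjusted p = 0.00159), and the corepressor Trim28 (0.32 ± 0.05, 0.00306). Of 10 SOX and POU factors and neural progenitor genes 0 were called without the block (2 at an unadjusted edgeR p under 0.05). With the block 2 rose and 1 fell, counts near the shares of all genes. Sox21 was higher (0.87 ± 0.15, edgeR adjusted p = 0.00323) and Pax6 lower (-0.59 ± 0.17, 0.0328).

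Markers of other cell types were summed per library and set beside the members. Over all genes edgeR called 0.909% higher and 2.18% lower in LDHi without the block, and 9.85% and 10.1% with it. The 8 markers of eye field cells summed to 547 to 1030 CPM in control, 285 to 325 CPM in LDHi and 483 to 724 CPM in LDHi+lactate libraries, and 6 of 8 fell in LDHi without the block and 8 with it (median log2 fold change -2.78 and -2.77). Hmx1 (-4.69 ± 0.51), Six6 (-3.40 ± 0.61), Tbx2 (-3.53 ± 0.70) and Mitf (-2.17 ± 0.31) were called in both fits, and Lhx2 (-0.73 ± 0.14) with the replicate block. Lhx2 weighed most in the sum, with means of 394, 234 and 297 CPM in control, LDHi and LDHi+lactate libraries. The 9 germ cell markers summed to 109 to 137 CPM in control, 182 to 215 in LDHi and 134 to 197 in LDHi+lactate libraries. Tfap2c weighed most in this sum, with means of 79.0, 119 and 94.9 CPM in the 3 groups. Of the 9 markers, 3 rose without the block, Dnd1 (1.20 ± 0.24, edgeR adjusted p = 0.0219), Nanos3 (1.22 ± 0.28, 0.0372) and Dppa3 (1.47 ± 0.35, 0.0416), and 6 with it, including Prdm1 (1.10 ± 0.18) and Tfap2c (0.62 ± 0.13). Mael (0.04 ± 0.45) and Sycp3 (0.08 ± 0.62) were near 0 without the block. The 14 naive factors summed to 319 to 567 CPM in control, 739 to 1340 in LDHi and 622 to 1150 in LDHi+lactate libraries.

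The 9 mesoderm and endoderm markers tested of 10 gave 0 calls without the block (2 at an unadjusted p under 0.05) and 3 that rose with it, among them Mixl1 (3.81 ± 0.81, edgeR adjusted p = 0.00900), while T was not called (2.04 ± 0.74, 0.0795). Of all genes 9.85% rose with the block. At an unadjusted edgeR p under 0.05 were 2916 of 17721 without the block and 5820 with it. The 10 mesoderm and endoderm markers together summed to 92.3 to 197 CPM in control and 139 to 238 CPM in LDHi libraries. The 8 neuron markers gave 0 calls in either fit (0 and 1 at an unadjusted p under 0.05), and summed to 155 to 940 CPM in control and 218 to 929 CPM in LDHi libraries, with Neurog2 at 0.85 ± 0.35 and Tubb3 at 0.46 ± 0.32 with the replicate block. In every list and group 0 genes were at 0 in all 4 libraries. The part of the eye field, germ cell and other markers in the differences of Pou5f1, Sox2, Sall4, Dnmt3l and Utf1 was not tested.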

How the data were processed

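RNA was measured by single-read mRNA sequencing in 12 libraries of day 7 organoids, 4 per group, from 4 independent experiments per the methods of the study. The authors deposited raw counts per gene from HTSeq 0.6.1p1, made after trimming (cutadapt 1.13) and STAR alignment to mm10. No source used here states the annotation release or the strand setting, so reads of overlapping genes on either strand may be shared. Labels gave the groups and the replicate numbers.

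From the counts, edgeR 4.0.16 (R 4.3.3; TMM scaling, filterByExpr by group, quasi-likelihood test over 17721 genes, Benjamini-Hochberg adjusted p under 0.05) was run on all 12 libraries without a block. It was repeated with the replicate number as a block, because libraries of the same number in different groups deviated together (r of deviations from group means 0.329 to 0.634 in 12 pairs, against -0.544 to 0.197 in 36 pairs of different numbers). The pairing comes from this check and not from the labels. No pair of libraries of the same group agreed within sampling noise. DESeq2 1.42.0, other scalings and filters, a term for the library set, each set alone and leaving out each library were alternatives. DESeq2 with the block, and the blocked fit under other scalings, filters and left-out replicates, were added after seeing the data. Exact permutation tests (scipy 1.17.1) used log2 CPM (prior count 2).

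The members and the gene lists were chosen with earlier results of these data known. All 10 members were named, with up to 4 called genes and 2 others of smallest adjusted p in each list and the 5 genes most correlated with each member. One gene that this rule names is not reported here. Genes were placed with GENCODE on mm10. On simulated counts for LDHi against control over 17721 genes, the fit without the block called 58% of changes of 1 and 89% of changes of 2 on the log2 scale, with 0 false calls, and the blocked fit 83% and 98%, with 10 false calls. The simulated means and spreads came from fits with the replicate number, and changed genes had a mean CPM of at least 1. The blocked fit thus matched the simulation by construction, so the simulation cannot say which fit suits the real libraries.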

Additional observations from a re-analysis of the deposited data

Results flagged for a closer look

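Of 30 groups of 4 libraries (10 members in 3 groups), 5 held a library whose gap to the nearest other library was large for its group's range. For independent values the cutoff would give about 5% of groups by chance. The members are not independent (r = 0.968 for Pou5f1 and Utf1), and several flags fell on control replicate 2, so the count cannot be set against 5%. Control replicate 2 stood above the other control libraries for Pou5f1 (81.9 CPM), Fgf5 (7.95 CPM) and Utf1 (76.6 CPM). LDHi+lactate replicate 2 stood above its group for Pou5f1 (200 CPM), and LDHi+lactate replicate 4 did so for Sox2 (574 CPM). The cause was not tested. The effects of treatment in replicates 1 and 2 and in replicates 3 and 4 were compared for each member in the 3 comparisons, 30 in all, and by the edgeR interaction test over all genes 0 differed after adjustment, with 1 at an unadjusted p under 0.05 (Fgf5 in LDHi+lactate against LDHi, -4.13 ± 1.56, edgeR adjusted p = 0.9999).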

How the results depend on the processing

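Without the block, 1 member was called higher in LDHi than in control, and this count was 2 with DESeq2 (Sox2 and Pou5f1), 5 with the replicate block, 6 with DESeq2 and the replicate block, 2 with the library set as a term and 0 with replicates 1 and 2 alone. Leaving out each library gave 0 to 2, namely 0 when control replicate 1 or 3, or any of LDHi replicates 2, 3 and 4, was absent, and 2 without control replicate 2 or LDHi+lactate replicate 2. Over all genes the counts of 161 higher and 386 lower became 477 and 860 with DESeq2, 554 and 833 with the set as a term, 0 and 3 with replicates 1 and 2 alone, 47 and 63 with replicates 3 and 4 alone, and 1746 and 1787 with the replicate block, and 25 to 275 and 85 to 597 with each library left out. In LDHi+lactate against LDHi 1 member was lower with the replicate block, alone or in DESeq2. In LDHi+lactate against control 5 members were higher with the replicate block and 6 with DESeq2 and the replicate block. Over all genes edgeR with the block called 101 higher and 12 lower in LDHi+lactate against LDHi, and 740 and 686 against control. DESeq2 with the block called 2002 higher and 2099 lower of all genes in LDHi against control. It called 355 and 132 in LDHi+lactate against LDHi, and 1204 and 1290 in LDHi+lactate against control. Leaving out a replicate number from the blocked fit gave 4 to 6 members higher and 0 to 2 lower in LDHi against control, 0 to 1 lower in LDHi+lactate against LDHi and 0 to 4 higher in LDHi+lactate against control. Over all genes these fits called 823 to 1424 higher and 1003 to 1469 lower in LDHi against control. They called 3 to 104 and 0 to 10 in LDHi+lactate against LDHi, and 38 to 348 and 51 to 344 in LDHi+lactate against control. With no filter the blocked fit called 1 member lower in LDHi against control, Lin28a (-0.37, edgeR adjusted p = 0.0104). In LDHi+lactate against LDHi it called 1 higher, Lin28a (0.40, 0.0190), and 2 lower, among them Pou5f1 (-0.52, 0.00784). Over all genes it called 384 higher and 256 lower in that comparison. With other scalings the median of all genes was between -0.016 and 0.007. The 15 called genes named from the other lists kept their direction in all alternatives, while 255 of their unblocked values stayed called and 75 did not. The cause of these changes was not tested.

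Some log2 differences that were not called changed sign. In LDHi against control Fgf5 was at 0.21 with the replicate block, 0.29 with the set as a term, 0.87 with replicates 3 and 4 alone and 0.22 with DESeq2 and the block, and Pou3f1 was at -0.056 with replicates 1 and 2 alone. In LDHi+lactate against LDHi the replicate block gave -0.40 for Fgf5 and -0.047 for Pou3f1, and DESeq2 with the block -0.72 for Fgf5, -0.059 for Pou3f1 and -0.005 for Dnmt3l, which was at 0.000 with RLE scaling and the block. The set as a term gave -0.57 for Fgf5. Replicates 1 and 2 alone gave 0.047 for Pou5f1, 0.069 for Sall4 and 0.33 for Utf1, and replicates 3 and 4 alone -3.09 for Fgf5, -0.23 for Pou3f1, -0.19 for Dnmt3b and -0.42 for Dnmt3l. In LDHi+lactate against control the replicate block gave 0.036 for Lin28a and -0.19 for Fgf5, DESeq2 with the block 0.031 and -0.51, and replicates 3 and 4 alone 0.21 and -2.22, with 0.16 for Lin28b, while the set as a term gave -0.28 for Fgf5.

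With each library left out, the range in LDHi against control was -0.56 to 1.06 for Fgf5, -0.084 to 0.45 for Pou3f1 and -0.51 to 0.074 for Lin28b. For LDHi+lactate against LDHi the range was -0.21 to 0.13 for Sall4, -1.17 to 0.78 for Fgf5, -0.28 to 0.23 for Pou3f1, -0.26 to 0.32 for Dnmt3b, -0.28 to 0.34 for Dnmt3l, -0.044 to 0.50 for Lin28b and -0.76 to 0.096 for Utf1. Against control, LDHi+lactate ranged over -0.28 to 0.21 for Lin28a, -1.37 to 1.44 for Fgf5, -0.19 to 0.52 for Pou3f1 and -0.27 to 0.28 for Lin28b. In the blocked fit without each replicate number it was -0.67 to 0.68 for Fgf5 and -0.082 to 0.59 for Pou3f1 in LDHi against control. Between LDHi+lactate and LDHi it was -1.25 to 0.54 for Fgf5, -0.39 to 0.20 for Pou3f1, -0.086 to 0.19 for Dnmt3b and -0.18 to 0.23 for Dnmt3l. Between LDHi+lactate and control it was -0.15 to 0.15 for Lin28a, -0.72 to 0.39 for Fgf5 and -0.23 to 0.088 for Lin28b.

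Among the ratios, replicates 1 and 2 alone gave 0.88 for Fgf5 to Pou5f1, 0.20 for Dnmt3l to Dnmt3b and -0.30 for Sox2 to Pou5f1 in LDHi+lactate against LDHi, and replicates 3 and 4 alone 0.048 for Utf1 to Pou5f1 in LDHi+lactate against control. With each library left out, the range in LDHi+lactate against LDHi was -0.87 to 0.37 for Fgf5 to Pou5f1, -0.32 to 0.15 for Dnmt3l to Dnmt3b, -0.077 to 0.62 for Sox2 to Pou5f1 and -0.42 to 0.045 for Lin28b to Lin28a. It was -0.12 to 0.33 in LDHi against control and -0.31 to 0.16 in LDHi+lactate against control for Lin28b to Lin28a, and -0.39 to 0.25 for Pou3f1 to Sox2 in LDHi+lactate against control. The cause was not tested. Fgf5 had the fewest counts of the members, 5 to 371 per library.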
